A study of Mus musculus with 22 samples.

Results

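The genes described here are the mouse genes whose symbols begin with Vps, Snx or Chmp followed by a digit, which name most of the proteins that sort cargo on endosomes. In the deposited table of 12596 genes, 70 symbols fitted that pattern. The rule leaves out 2 of them, and the remaining 68 are the members: 31 VPS genes, 28 sorting nexins and 9 CHMP genes. Endosomes receive membrane proteins taken up from the cell surface and send them back to the surface, to the trans-Golgi network or on to the lysosome. Retromer, retriever and the sorting nexins recover receptors and transporters for reuse, the GARP and EARP complexes tether the carriers that return, and HOPS and CORVET tether endosomes to each other and to lysosomes. The ESCRT complexes pull ubiquitinated cargo into vesicles inside the endosome, and the VPS4 ATPases then take the ESCRT-III filament apart. Neurons depend on these routes for the turnover of synaptic vesicle and receptor proteins along long axons.

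Each of 11 mice gave a pair of RNA sequencing libraries. The mice were crosses on a C57Bl/6 background of a Th-cre line (B6.Cg-7630403G23RikTg(Th-cre)1Tmd/J) with a line that carries Slc6a2-eGFP/Rpl10a (listed as B6;FVB-Tg(Slc6a2-eGFP/Rpl10a), founder JD1538Htz/J), so controls and treated animals share both transgenes. The second transgene tags a ribosomal protein under the regulatory sequences of the noradrenaline transporter gene Slc6a2, so ribosomes of all cells that use these sequences can be pulled down. The IP library holds the RNA bound to the tagged ribosomes (labelled noradrenergic), and the input library holds the RNA before the pull-down (labelled total hindbrain). In 5 animals hTyr was infused, the human enzyme tyrosinase that makes melanin, and in 6 animals the fluorescent protein EYFP was infused as control. The 4 groups are therefore hTyr IP, hTyr input, EYFP IP and EYFP input. An animal is named by its library (IP_501 or, for input, Pre_501), and hTyr values are given in the order IP_501, IP_502, IP_508, IP_509 and IP_510. The vector, dose, site, time after infusion, age and sex are not in the labels used here, and neither is a batch or a date.

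Levels are given as the deposited log2 CPM, reads scaled to the size of the library, on a log2 scale, on which each unit is a doubling. A library held between 12654489 and 25100142 reads in the table, and the member with the fewest reads in any library was Snx29, with 76. The 9 noradrenergic marker genes checked the label of the IP libraries: all 9 were higher in IP than in input under both treatments, with a median log2 difference of 1.99 in EYFP and 2.78 in hTyr. Their summed level ran from 522 to 1151 CPM in EYFP IP against 129 to 161 in EYFP input, and from 657 to 1916 in hTyr IP against 134 to 171 in hTyr input. The mouse tyrosinase gene Tyr and the human transgene were not analysed here, so the treatment label was not checked on RNA.

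The first comparison asked which endosomal sorting genes were more or less abundant on the tagged ribosomes than in the whole tissue. In EYFP animals 33 of the 68 members were higher in IP and 14 were lower. In hTyr animals 31 were higher and 11 lower. The same 31 members were higher and the same 10 lower in both treatments. The members with the largest rises were Vps50, Vps13a, Snx14 and Vps45, and those with the largest falls, averaged over both treatments, were Snx22 and Vps37c. Of the 8 members of the HOPS, CORVET and CHEVI tethers 7 were higher in both treatments, as were all 4 RGS-PX sorting nexins, while none of the 9 CHMP genes of ESCRT-III was higher in either.

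The test was limma on the deposited log2 values, with p-values adjusted by the Benjamini-Hochberg method over all 12596 genes and a threshold of 0.05. By the same test 28.5% of all genes were higher and 28.1% lower in EYFP, against 48.5% and 20.6% of the members. In hTyr 27.4% of all genes were higher and 27.0% lower, against 45.6% and 16.2% of the members. Across both treatments 24.2% of all genes were higher and 22.1% lower, against 45.6% and 14.7% of the members. The median member stood 0.13 above input in EYFP and 0.21 in hTyr on the log2 scale, while the median over all genes was -0.025 and -0.036. When each library was centred on its median, the members split into 28 higher and 18 lower in EYFP and 28 and 16 in hTyr, beside 25.2% higher and 33.6% lower of all genes in EYFP and 24.0% and 33.1% in hTyr. The count of lower members rested partly on single animals, with 9 in EYFP without the animal of IP_506 and 7 in hTyr without the animal of IP_502.

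**Figure D1:**
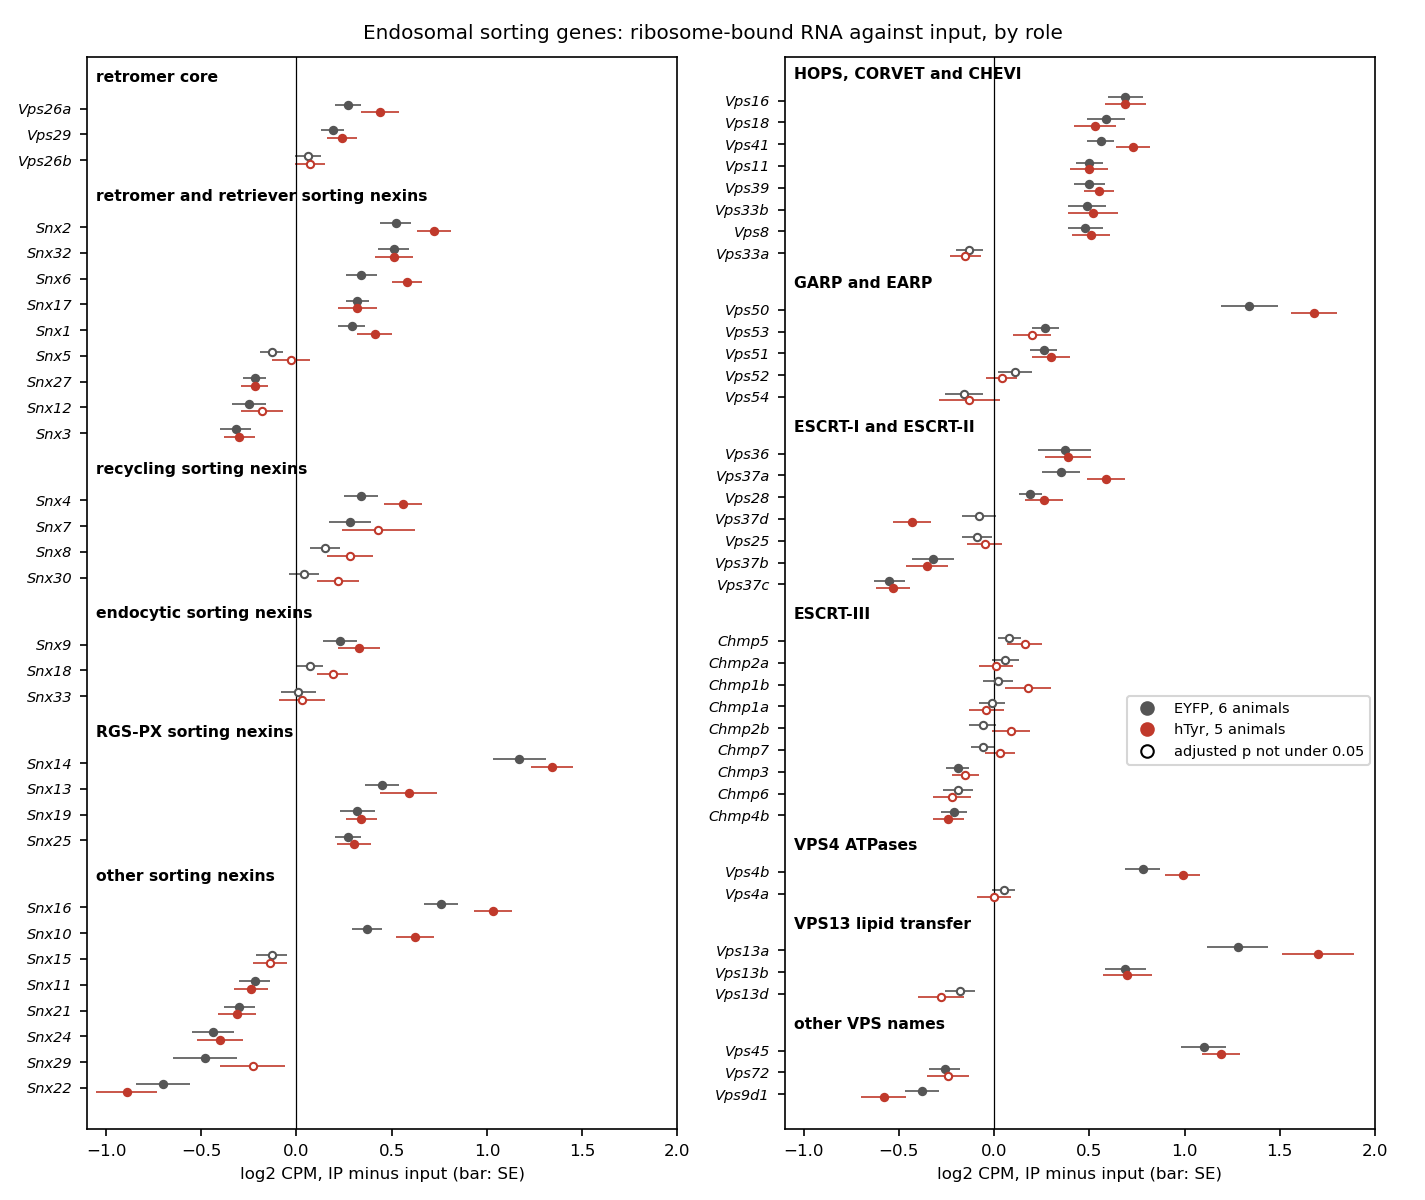
Log2 CPM in IP minus input for each of the 68 members, grouped by role (x axis, log2; points, limma estimate; bars, SE; gray, 6 EYFP animals; red, 5 hTyr animals; open points, adjusted p not under 0.05). Vps50 at 1.34 and 1.68, Vps13a at 1.28 and 1.70 and Snx14 at 1.17 and 1.34 stand farthest to the right, Snx22 at -0.70 and -0.89 farthest to the left, and the ESCRT-III genes gather around 0.

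Markers of other cells moved with the same contrast. Of 9 markers of other neurons, 7 were higher in EYFP IP and 6 in hTyr IP, with a median log2 difference of 0.41 and 0.48. The largest rises were those of the glutamate transporter gene Slc17a6 (1.08 and 1.33) and the serotonergic enzyme gene Tph2 (1.23 and 1.28). Slc17a7, also a glutamate transporter gene, stood at -0.43 and -0.54 and Slc6a5 at -0.12 and -0.08, past the threshold in neither treatment. The summed level of the 9 was 1229 to 1523 CPM in EYFP IP against 876 to 1156 in input, and 1103 to 1427 in hTyr IP against 858 to 1071. Of 8 astrocyte markers 4 were higher in EYFP and 5 in hTyr, with none lower (2782 to 4095 CPM in EYFP IP against 2359 to 2868 in input, 3094 to 3868 in hTyr IP against 2385 to 3008). Oligodendrocyte markers split into 2 higher and 3 lower of 8 in EYFP and 3 and 3 in hTyr, with summed levels of 5967 to 7693 CPM in EYFP IP and 6337 to 8361 in input, 5928 to 8229 in hTyr IP and 7135 to 8928 in input. Microglial markers (0 higher and 1 lower of 8 in EYFP, 2 and 1 in hTyr) summed to 181 to 335 CPM in EYFP IP against 181 to 297 in input and to 200 to 364 in hTyr IP against 203 to 318. Of 5 endothelial markers 0 passed in EYFP and 2 were higher in hTyr, with summed levels of 38 to 52 CPM in EYFP IP against 34 to 49 in input and of 28 to 71 in hTyr IP against 33 to 52. No marker was at 0 in every library. The part of these cells in the differences of the members was not tested, and in such bulk libraries fewer cells of a type and less RNA per cell cannot be told apart. P-values measure the spread between the libraries of these animals. The main fit did not pair the IP and input of an animal, while the alternative with the animal as a block did.

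HOPS and CORVET are the tethers that bring late and early endosomes together before fusion. They share the core subunits Vps11, Vps16, Vps18 and Vps33a, HOPS adds Vps39 and Vps41, CORVET adds Vps8, and Vps33b is the counterpart of Vps33a in a separate complex, CHEVI. Of these 8 members 7 were higher in IP in both treatments, with a median log2 difference of 0.50 in EYFP and 0.52 in hTyr. The exception was Vps33a.

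Vps16 ran from 4.90 through a median of 5.11 to 5.18 log2 CPM in EYFP input, and from 5.41 through 5.82 to 5.99 in EYFP IP. In hTyr input it stood at 5.17, 4.88, 4.83, 4.90 and 5.21 (in the order of animals given above), and in hTyr IP at 5.36, 5.76, 5.64, 5.77 and 5.92. All 11 IP libraries lay above every input library of their treatment. The difference was 0.69 (SE 0.09, limma adjusted p = 1.68e-05) in EYFP and 0.69 (SE 0.11, adjusted p = 7.68e-05) in hTyr. Vps41 was the most abundant of the group, at 7.39 ± 0.10 in EYFP input and 7.95 ± 0.14 in EYFP IP (SD, n = 6), and at 7.32 ± 0.17 in hTyr input and 8.05 ± 0.07 in hTyr IP (SD, n = 5). It gained 0.56 (SE 0.07) in EYFP and 0.73 (SE 0.09) in hTyr, with adjusted p of 1.24e-05 and 3.44e-06, and IP and input did not overlap. Adjusted in each library for exon length and GC content, the length and GC adjustment used again below, its gains were 0.39 and 0.46. The gains of Vps18 were 0.59 and 0.53, those of Vps39 0.50 and 0.55, those of Vps11 0.50 and 0.50, those of Vps33b 0.49 and 0.52 and those of Vps8 0.48 and 0.51 (EYFP, then hTyr), and the largest adjusted p among them was 0.00332. Vps33a went the other way without passing the test: it ran from 6.74 through 6.82 to 6.89 in EYFP input and from 6.48 through 6.70 to 6.87 in EYFP IP, a difference of -0.13 (SE 0.07, adjusted p = 0.151). In hTyr the difference was -0.15 (SE 0.08, adjusted p = 0.136).

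The promoters of 3 members share a motif, and they are shown because 2 of them belong to core subunits of HOPS, Vps16, which rose in IP, and Vps33a, which did not pass. The motif is TCACGTGA, the core of the element that the lysosomal regulator TFEB is known to bind. It was searched on both strands of the 250 bases before the transcription start in RefSeq (GRCm38.p6), a table that gave a promoter for 48 of the 68 members and 9578 genes of the deposited table. The motif was in 1.57% of all promoters and in 3 of the 48, those of Vps16, Vps26a and Vps33a. Its capitals mark it in these sequences, 5′ to 3′ on the strand of the gene.
Vps16 (chr2:130424070-130424319, plus strand): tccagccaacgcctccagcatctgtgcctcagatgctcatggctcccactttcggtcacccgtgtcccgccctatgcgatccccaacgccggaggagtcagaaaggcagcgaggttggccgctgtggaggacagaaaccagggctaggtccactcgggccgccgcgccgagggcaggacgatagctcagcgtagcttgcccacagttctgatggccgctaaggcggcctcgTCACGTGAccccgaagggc
Vps26a (chr10:62486806-62487055, minus strand): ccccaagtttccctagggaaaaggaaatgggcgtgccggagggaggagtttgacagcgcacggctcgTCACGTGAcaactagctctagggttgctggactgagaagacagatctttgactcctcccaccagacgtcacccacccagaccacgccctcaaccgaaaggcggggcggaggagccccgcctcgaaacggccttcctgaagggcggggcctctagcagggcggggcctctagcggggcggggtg
Vps33a (chr5:123573016-123573265, minus strand): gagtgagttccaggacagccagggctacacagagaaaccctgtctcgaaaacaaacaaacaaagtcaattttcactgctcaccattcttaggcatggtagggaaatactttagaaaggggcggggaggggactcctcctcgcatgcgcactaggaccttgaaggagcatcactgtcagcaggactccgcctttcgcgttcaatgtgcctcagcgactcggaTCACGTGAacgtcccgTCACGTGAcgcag
Vps33a carries the motif at 2 places, and Vps16 and Vps26a at 1 each. Any relation of the matches to the difference between IP and input was not tested. The shorter E-box CACGTG, which lies inside the longer motif, was in 8.63% of all promoters and in 6 of the 48, with Snx5, Snx8 and Snx18 added. Of 3 other motifs, GGGCGG was in 60.6% of all promoters and 31 of the 48, CCGGAAGT in 5.82% and 5, and TGACGTCA in 2.93% and 0. The motifs were chosen after others had been looked at, and a match describes only the letters in this window.

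EARP and GARP share Vps51, Vps52 and Vps53. Vps50 makes the complex EARP, which acts on recycling endosomes, and Vps54 makes it GARP, which acts at the trans-Golgi network. The 2 specific subunits lay at opposite ends of this group. Vps50 (chr6:3498382-3603531 in mm10) ran from 4.09 through 4.35 to 4.54 log2 CPM in EYFP input and from 5.04 through 5.76 to 6.12 in EYFP IP. Among hTyr input libraries it stood at 4.02, 4.11, 4.01, 4.40 and 4.53, and in hTyr IP at 5.79, 5.77, 5.80, 6.05 and 6.05. Every IP library lay above every input library. The difference was 1.34 (SE 0.15, adjusted p = 2.83e-06) in EYFP and 1.68 (SE 0.12, adjusted p = 1.57e-08) in hTyr. After the length and GC adjustment it was 0.92 and 1.11.

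Vps54 overlapped between IP and input in both treatments. It ran from 4.30 through 4.50 to 4.71 in EYFP input and from 4.05 through 4.35 to 4.59 in EYFP IP, a difference of -0.16 (SE 0.10, adjusted p = 0.173). In hTyr input it stood at 3.97, 4.54, 4.59, 4.78 and 4.09 and in hTyr IP at 4.50, 4.09, 4.61, 4.18 and 3.94, a difference of -0.13 (SE 0.16, adjusted p = 0.528). The length and GC adjustment took these to -0.54 and -0.66, both past the threshold. Of the shared subunits, Vps51 was higher by 0.26 in EYFP and 0.30 in hTyr (adjusted p = 0.00691 and 0.0182), and by 0.47 and 0.62 after that adjustment. Its hTyr call was lost without the animal of IP_502 or IP_508 (adjusted p = 0.103 and 0.0653) and under median centring (adjusted p = 0.0675). Vps53 was higher by 0.27 in EYFP (adjusted p = 0.00373), with 0.20 in hTyr (adjusted p = 0.0862). Vps52 stood at 0.11 and 0.04 and did not pass. In Vps51, 18.0% of the exon bases overlap Tm7sf2 on the same strand, so its reads may include those of that gene.

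**Figure D2:**
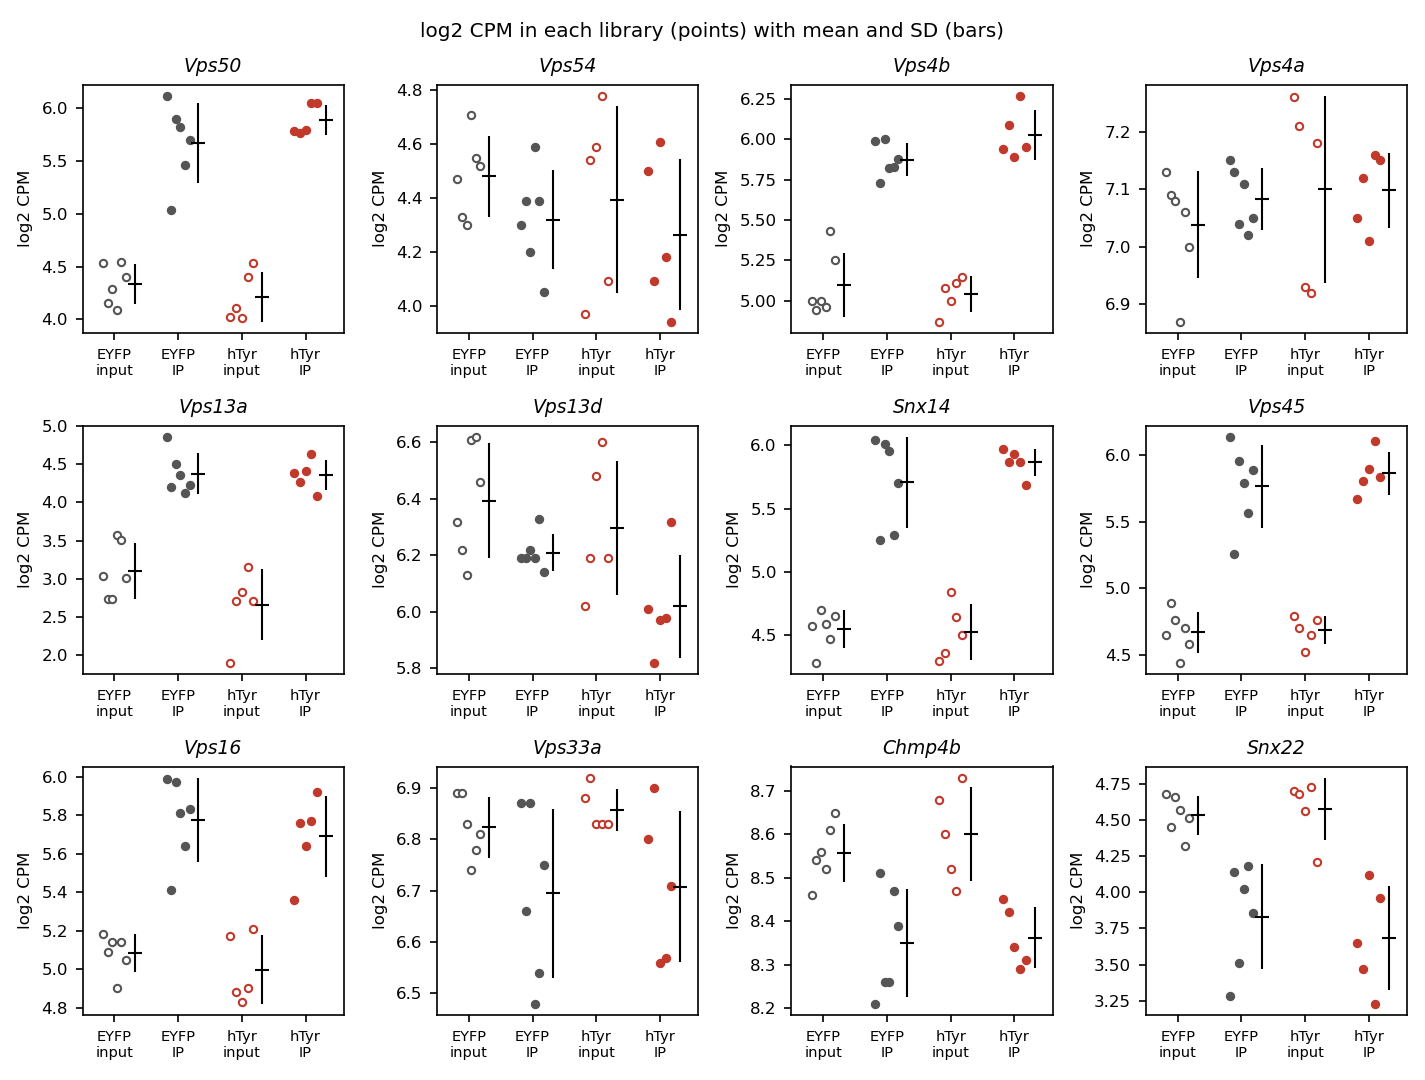
Log2 CPM (y axis) of 12 members in each library (points; open, input; filled, IP; gray, EYFP; red, hTyr), with the mean and SD of each group beside them. IP and input separate completely for Vps50, Vps4b, Vps13a, Snx14, Vps45, Vps16 and Snx22, while Vps54, Vps4a and Vps33a overlap.

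Retromer's core recognises cargo on the endosome, and its members here are Vps29 and the alternative subunits Vps26a and Vps26b. Vps26a stood at 5.88 ± 0.11 in EYFP input and 6.15 ± 0.09 in EYFP IP (SD, n = 6), and in hTyr at 5.86 ± 0.23 and 6.30 ± 0.09 (SD, n = 5). It was higher by 0.27 (adjusted p = 0.0031) and 0.44 (adjusted p = 0.00176). Vps29 was higher by 0.19 (adjusted p = 0.0136) and 0.24 (adjusted p = 0.0183), calls lost in both under median centring and in hTyr without the animal of IP_508 or IP_509. Vps26b stood at 0.06 and 0.07 and did not pass. After the length and GC adjustment, Vps29 was at -0.09 in EYFP and -0.18 in hTyr, past the threshold in neither, and Vps26a at 0.11 (adjusted p = 0.0898) and 0.20 (adjusted p = 0.0443).

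The sorting nexins that work with retromer or retriever went in both directions. Snx1, Snx2, Snx5, Snx6 and Snx32 bend membrane into tubules, and 4 of these 5 were higher in IP in both treatments. Snx2 ran from 5.37 through 5.52 to 5.63 in EYFP input and from 5.81 through 6.04 to 6.27 in EYFP IP. Values in hTyr input were 5.35, 5.56, 5.50, 5.60 and 5.69 and in hTyr IP at 6.35, 6.17, 6.07, 6.38 and 6.32. IP lay above input throughout, by 0.52 (SE 0.08, adjusted p = 5.51e-05) in EYFP and 0.72 (SE 0.09, adjusted p = 6.6e-06) in hTyr. Snx32 was higher by 0.51 in both treatments, Snx6 by 0.34 and 0.58 (0.19 and 0.36 after the adjustment), and Snx1 by 0.29 and 0.41. In Snx32, 13.2% of the exon bases overlap Cfl1 on the opposite strand, and the strand setting of the counting is not given. Snx5 stood at -0.13 and -0.03 and did not pass.

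Of the cargo adaptors, Snx17, which hands receptors to retriever, was higher by 0.32 in both treatments (adjusted p = 0.000311 and 0.0123), a call lost in hTyr without the animal of IP_508 or IP_509 (adjusted p = 0.0621 and 0.0607). Exons of Eif2b4 on the opposite strand cover 11.9% of the exon bases of Snx17. Snx27, which links receptors with a PDZ-binding tail to retromer, was lower by 0.22 in both, from 7.60 ± 0.06 to 7.38 ± 0.09 in EYFP (SD, n = 6, adjusted p = 0.00543) and from 7.58 ± 0.07 to 7.36 ± 0.09 in hTyr (SD, n = 5, adjusted p = 0.0207), with no overlap. In hTyr its call was lost without the animal of IP_502, IP_508 or IP_509 (adjusted p = 0.0657, 0.0512 and 0.0934). Snx3, which carries Wntless back to the Golgi with retromer, fell from 7.86 ± 0.07 to 7.54 ± 0.18 in EYFP and from 7.88 ± 0.10 to 7.58 ± 0.10 in hTyr, with adjusted p of 0.00233 and 0.00407. Its close relative Snx12 stood at -0.25 in EYFP (adjusted p = 0.0226, or 0.0548 without the animal of IP_506) and at -0.18 in hTyr (adjusted p = 0.155).

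Snx4, Snx7, Snx8 and Snx30 serve recycling from early endosomes. Snx4 was higher by 0.34 in EYFP and 0.56 in hTyr (adjusted p = 0.00301 and 0.000133), and by 0.18 and 0.31 after the adjustment. Snx7 passed in EYFP at 0.28 (adjusted p = 0.0437), a call lost without any single animal (adjusted p between 0.058 and 0.122) and under median centring, and missed in hTyr at 0.43 (adjusted p = 0.0591, or 0.034 with the animal as a block), and after the length and GC adjustment it stood at -0.17 and -0.20. Snx8 stood at 0.15 and 0.28 and Snx30 at 0.04 and 0.22, past the threshold in neither treatment, though Snx8 passed in hTyr with the animal as a block (adjusted p = 0.0104). The endocytic nexins Snx9, Snx18 and Snx33 act with dynamin at the plasma membrane. Snx9 was higher by 0.23 and 0.33 (adjusted p = 0.0331 and 0.0144). Its EYFP call was lost without the animal of IP_506, IP_507, IP_511 or IP_512 and under median centring (adjusted p = 0.0888), and its hTyr call without that of IP_502 or IP_510 (adjusted p = 0.0844 and 0.0597). Snx18 (0.07 and 0.19) and Snx33 (0.01 and 0.03) passed in neither treatment.

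Snx13, Snx14, Snx19 and Snx25, grouped here as the RGS-PX sorting nexins, anchor in the endoplasmic reticulum. All 4 were higher in IP in both treatments. Snx14 (chr9:88376750-88438958), whose loss causes a recessive cerebellar ataxia in people, ran from 4.28 through 4.58 to 4.70 in EYFP input and from 5.25 through 5.83 to 6.04 in EYFP IP. In hTyr input it stood at 4.29, 4.36, 4.84, 4.64 and 4.50, and in hTyr IP at 5.97, 5.87, 5.93, 5.87 and 5.69. Every IP library exceeded every input library. The gain was 1.17 (SE 0.14, adjusted p = 4.73e-06) in EYFP and 1.34 (SE 0.11, adjusted p = 5.64e-08) in hTyr. Snx13 gained 0.45 and 0.59, Snx19 0.32 and 0.34, and Snx25 0.27 and 0.30, the last lost without the animal of IP_508 (adjusted p = 0.0525). The length and GC adjustment left Snx13 at 0.05 and 0.04, past the threshold in neither.

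The 8 remaining sorting nexins held most of the falls of their family: 5 were lower and 2 higher in EYFP, and 4 lower and 2 higher in hTyr. The risers were Snx16, an endosomal nexin with a coiled coil, and Snx10, which is needed for acidification in osteoclasts. Snx16 ran from 4.58 through 4.75 to 4.93 in EYFP input and from 5.21 through 5.48 to 5.71 in EYFP IP, and its 5 hTyr IP libraries (5.84, 5.54, 5.59, 5.90 and 5.60) all exceeded its 5 hTyr input libraries (4.46, 4.70, 4.60, 4.76 and 4.81). The gain was 0.76 (SE 0.09) in EYFP and 1.03 (SE 0.10) in hTyr, with adjusted p of 5.46e-06 and 4.5e-07. Of its exon bases 12.5% overlap Chmp4c on the opposite strand. Snx10 gained 0.37 and 0.62 (adjusted p = 0.00109 and 5.23e-05), and in EYFP this fell to 0.12 (adjusted p = 0.212) after the length and GC adjustment.

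Snx22 was the member most depleted from the tagged ribosomes. It ran from 4.32 through 4.54 to 4.68 in EYFP input and from 3.28 through 3.94 to 4.18 in EYFP IP. Its hTyr input libraries held 4.70, 4.68, 4.56, 4.73 and 4.21, and in hTyr IP at 3.65, 3.47, 4.12, 3.23 and 3.96. IP lay below input throughout, by -0.70 (SE 0.14, adjusted p = 0.000489) in EYFP and -0.89 (SE 0.16, adjusted p = 0.000172) in hTyr. Exons of Ppib on the opposite strand cover 28.5% of its exon bases, and the strand setting of the counting is not given, so reads of both genes may be mixed.

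Snx24 fell by 0.44 and 0.40 (adjusted p = 0.00348 and 0.00939), and in hTyr it missed the threshold without the animal of IP_502 (adjusted p = 0.0658) or IP_509 (adjusted p = 0.0524). Snx21 fell by 0.30 and 0.31 (adjusted p = 0.00514 and 0.0117). Without the animal of IP_502 its hTyr call was lost (adjusted p = 0.0533), and after the length and GC adjustment it stood at -0.16 there (adjusted p = 0.144). Snx11 fell by 0.22 and 0.24 (adjusted p = 0.0207 and 0.0416). Its call was lost in EYFP without the animal of IP_504, IP_506, IP_507 or IP_512, in hTyr without the animal of IP_502, IP_508 or IP_509, and in both after the adjustment (-0.11 and -0.07, adjusted p = 0.171 and 0.5). Snx29 fell by 0.48 in EYFP (adjusted p = 0.0231, or 0.086 without the animal of IP_511) and stood at -0.23 in hTyr (adjusted p = 0.266). Snx15 stood at -0.13 and -0.14 and did not pass.

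The VPS13 proteins are long bridges that let lipids flow between membranes in contact. Vps13a (chr19:16615366-16780933), mutated in chorea-acanthocytosis, ran from 2.73 through 3.02 to 3.57 log2 CPM in EYFP input and from 4.12 through 4.30 to 4.86 in EYFP IP. In hTyr input it stood at 1.90, 2.71, 2.83, 3.15 and 2.71, and in hTyr IP at 4.38, 4.27, 4.41, 4.63 and 4.09. The lowest value, 1.90, came from the input library Pre_501, and even the highest input library lay below the lowest IP library. The gain was 1.28 (SE 0.16, adjusted p = 9.21e-06) in EYFP and 1.70 (SE 0.19, adjusted p = 1.51e-06) in hTyr. After the length and GC adjustment it was 0.82 and 1.07.

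Vps13b, a Golgi protein mutated in Cohen syndrome, ran from 4.09 through 4.40 to 4.60 in EYFP input and from 4.63 through 5.09 to 5.25 in EYFP IP, and gained 0.69 and 0.70 (adjusted p = 9.46e-05 and 0.00019), or 0.47 and 0.43 after the adjustment. Vps13d, which acts at mitochondria and peroxisomes, stood at -0.18 (adjusted p = 0.0755) and -0.28 (adjusted p = 0.0528) and passed neither test. With the animal as a block in the fit, Vps13d passed in both treatments.

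The names of 3 VPS members do not mark one complex. Vps45 (chr3:95999832-96058466) encodes a partner of the SNARE proteins in fusion at early endosomes, and ran from 4.44 through 4.67 to 4.89 in EYFP input and from 5.26 through 5.84 to 6.14 in EYFP IP. Its hTyr input libraries stood at 4.79, 4.70, 4.52, 4.65 and 4.76 and its hTyr IP libraries at 5.67, 5.81, 5.90, 6.11 and 5.84. There was no overlap, and the gain was 1.10 (SE 0.12, adjusted p = 3.66e-06) in EYFP and 1.19 (SE 0.10, adjusted p = 5.9e-08) in hTyr. It stood at 1.12 and 1.21 after the length and GC adjustment. Vps9d1, which has a domain found in activators of the early endosomal GTPase RAB5, fell by 0.38 and 0.58 (adjusted p = 0.00283 and 0.000707), although some IP and input libraries overlapped, and after the adjustment the falls were -0.18 and -0.30 (adjusted p = 0.0377 and 0.0221). Vps72 is a nuclear chromatin protein despite its symbol, and it was lower by 0.26 in EYFP (adjusted p = 0.0146), a call lost without the animal of IP_506 or IP_512. In hTyr it stood at -0.24 (adjusted p = 0.0864, or 0.0493 with the animal as a block).

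In the ESCRT pathway, ESCRT-I binds ubiquitinated cargo, and its subunits include Vps28 and a Vps37 protein, of which there are 4. ESCRT-II (Vps25 and Vps36 here) links ESCRT-I to ESCRT-III. The 7 members went in both directions, with 3 higher and 2 lower in EYFP and 3 higher and 3 lower in hTyr. The Vps37 relatives accounted for all of the falls. Vps37c (chr19:10688735-10714627) ran from 5.08 through 5.30 to 5.49 in EYFP input and from 4.56 through 4.76 to 4.95 in EYFP IP. Among hTyr input libraries it stood at 5.42, 5.26, 5.16, 5.21 and 5.20, and in hTyr IP at 4.73, 4.74, 4.63, 4.60 and 4.87. IP lay below input without overlap, by -0.55 (SE 0.08, adjusted p = 4.13e-05) and -0.53 (SE 0.09, adjusted p = 0.000119).

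Vps37b fell by 0.32 and 0.35 (adjusted p = 0.019 and 0.0118). Its EYFP call was lost without the animal of IP_504 or IP_506 (adjusted p = 0.0587 and 0.0672) and both calls after the length and GC adjustment (-0.21 and -0.17), and 42.5% of its exon bases overlap Hip1r on the opposite strand. Vps37d fell by 0.43 in hTyr (adjusted p = 0.00106) and stood at -0.08 in EYFP (adjusted p = 0.439). Vps37a was higher by 0.35 and 0.59 (adjusted p = 0.00482 and 8.23e-05), but the length and GC adjustment left it at -0.01 and 0.06 and Vps37d at -0.11 in hTyr, neither past the threshold. Vps28 gained 0.19 and 0.26 (adjusted p = 0.0173 and 0.0294), calls lost in EYFP without the animal of IP_506, IP_507 or IP_512, in hTyr without that of IP_508 or IP_509, and in both under median centring (adjusted p = 0.0738 and 0.11). Vps36 gained 0.37 and 0.39 (adjusted p = 0.0332 and 0.0128). Its EYFP call was lost without the animal of IP_504, IP_506, IP_507 or IP_512 and under median centring (adjusted p = 0.06), and the length and GC adjustment took both calls (0.29 and 0.26, adjusted p = 0.0872 and 0.0669). Vps25 stood at -0.09 and -0.05, and 67.2% of its exon bases overlap Ramp2 on the same strand.

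ESCRT-III, the filament built from the CHMP proteins that cuts the vesicle neck, was the role with the fewest calls for its size in the main fit. None of its 9 members was higher in IP, 2 were lower in EYFP and 1 in hTyr, and the median difference was -0.06 and 0.01. Chmp4b, the main filament subunit, ran from 8.46 through 8.55 to 8.65 in EYFP input and from 8.21 through 8.33 to 8.51 in EYFP IP. In hTyr input it stood at 8.68, 8.60, 8.52, 8.47 and 8.73, and in hTyr IP at 8.45, 8.42, 8.34, 8.29 and 8.31. The groups overlapped in EYFP and not in hTyr, and the differences were -0.21 (SE 0.07, adjusted p = 0.0154) and -0.24 (SE 0.08, adjusted p = 0.0169). The EYFP call was lost without the animal of IP_506 (adjusted p = 0.0617) and the hTyr call without the animal of IP_510 (adjusted p = 0.0763) or after the length and GC adjustment (adjusted p = 0.0883). Chmp3 was lower by 0.19 in EYFP (adjusted p = 0.0187, lost without the animal of IP_504 or IP_506), with -0.15 in hTyr (adjusted p = 0.0925). Chmp1a, Chmp1b, Chmp2a, Chmp2b, Chmp5, Chmp6 and Chmp7 lay between -0.22 and 0.18 in both treatments and did not pass. After the length and GC adjustment, Chmp1b (-0.21, limma adjusted p = 0.0299) and Chmp2b (-0.20, adjusted p = 0.028) passed as lower in EYFP. Chmp3 then passed as lower in both treatments (-0.24 and -0.23, adjusted p = 0.00201 and 0.00528). With the animal as a block in the fit, Chmp6 passed as lower in both (adjusted p = 0.0383 and 0.0492).

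The ATPases that disassemble the filament differed from each other. Vps4b (chr1:106764071-106796728) ran from 4.94 through 5.0 to 5.43 in EYFP input and from 5.73 through 5.85 to 6.00 in EYFP IP. Values in hTyr input were 4.87, 5.08, 5.0, 5.11 and 5.15, and in hTyr IP at 5.94, 6.09, 5.89, 6.27 and 5.95. IP lay above input throughout, by 0.78 (SE 0.09, adjusted p = 3.88e-06) in EYFP and 0.99 (SE 0.09, adjusted p = 2.91e-07) in hTyr, and by 0.45 and 0.52 after the length and GC adjustment. Vps4a ran from 6.87 through 7.07 to 7.13 in EYFP input and from 7.02 through 7.08 to 7.15 in EYFP IP, a difference of 0.05 (adjusted p = 0.522), and it did not pass in hTyr either (adjusted p = 0.998).

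Related members were then compared within each animal, as the difference between their IP minus input values. The 15 pairs were chosen after values had been seen. Each was tested by an exact two-sided sign-flip permutation over the 11 animals, whose smallest possible p is 0.000977, with adjustment over the 15 pairs. In 11 pairs the first gene exceeded the second with an adjusted p between 0.00146 and 0.00266. In 10 of those 11 the first gene also had the lower GC content, and the length and GC adjustment was therefore applied to the pairs as well, where 8 of the 11 passed in the same direction.

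Vps50 exceeded Vps54 by 1.64 ± 0.43 (SD) and in 11 of 11 animals, and their GC contents were 40.1% and 40.2%. Vps33b exceeded Vps33a by 0.64 ± 0.32 in 11 of 11, with GC contents of 51.4% and 50.5%. Snx6 exceeded Snx5 by 0.53 ± 0.19 in 11 of 11, with 43.7% and 45.2%. These 3 pairs, close in base composition, moved little after it (1.60, 0.64 and 0.51, exact permutation p = 0.000977 each).

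Other pairs changed more. Vps4b exceeded Vps4a by 0.85 ± 0.25 in 11 of 11 animals and by 0.43 after the adjustment. Vps13a exceeded Vps13d by 1.70 ± 0.47 and Vps13b by 0.78 ± 0.42, and by 1.24 and 0.48 after it. Among the Vps37 relatives, Vps37a exceeded Vps37c by 1.00 ± 0.30, Vps37b by 0.79 ± 0.37 and Vps37d by 0.70 ± 0.39, each in 11 of 11 animals, and these became 0.43, 0.21 and 0.02, the last with an adjusted p of 0.829. Likewise Vps26a exceeded Vps26b by 0.28 ± 0.21 in 11 of 11 and Snx2 exceeded Snx1 by 0.26 ± 0.16 in 10 of 11, with 0.01 and 0.03 after the adjustment, past the threshold in neither.

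No difference passed for Vps41 against Vps39 (0.11 ± 0.22, adjusted p = 0.135, exact permutation test), Chmp1b against Chmp1a (0.11 ± 0.28, adjusted p = 0.231), Chmp2b against Chmp2a (-0.03 ± 0.22, adjusted p = 0.682) or Snx3 against Snx12 (-0.09 ± 0.16, adjusted p = 0.112). After the length and GC adjustment, Vps39, Chmp1a and Chmp2a stood above their relatives, by differences of -0.13, -0.28 and -0.21 and adjusted p of 0.0466, 0.00209 and 0.00549, so the reading of these pairs depended on it. The Snx3 pair passed without the animal of IP_507 (-0.11, adjusted p = 0.0415) and the Chmp1b pair without the animal of IP_512 (0.16, adjusted p = 0.0391).

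**Figure D3:**
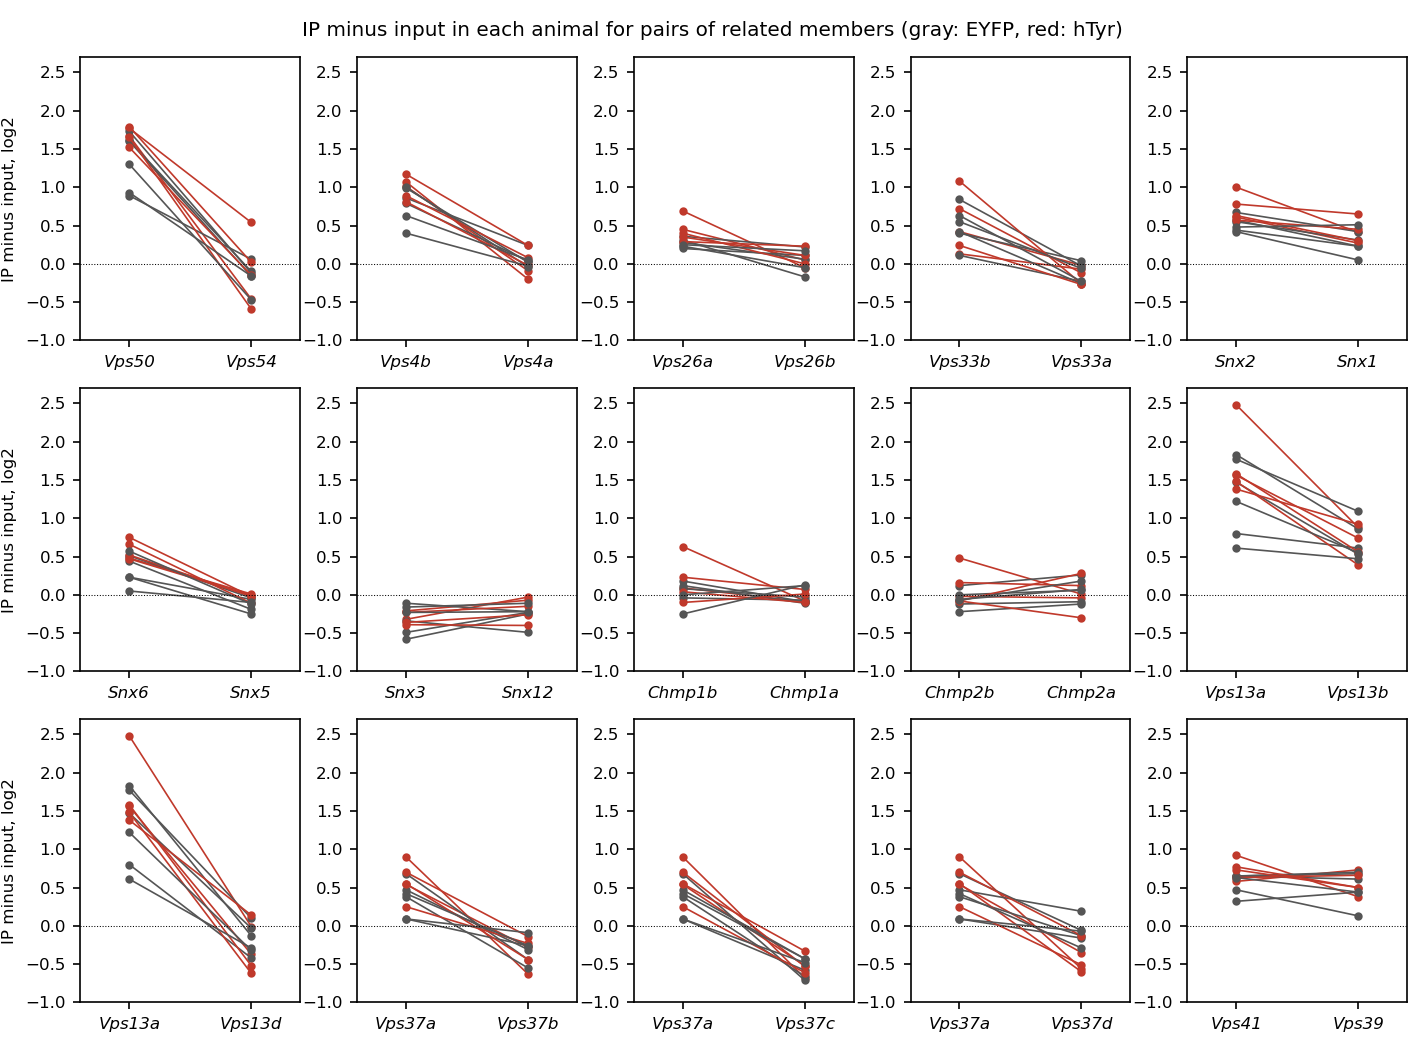
IP minus input on the log2 scale (y axis) for both genes of each of the 15 pairs of related members, with a line for each animal (gray, 6 EYFP; red, 5 hTyr). The lines fall in 11 of 11 animals from Vps50 to Vps54, Vps4b to Vps4a and Vps33b to Vps33a, and cross without a common direction from Chmp2b to Chmp2a.

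Per kilobase of exon, with all annotated exons of a gene merged, the most abundant members included CHMP filament subunits and the adaptor Snx3. A merged length can exceed that of the transcript in use, which lowers a gene on this scale. On the scale of log2 CPM per kilobase of exon, Chmp4b stood at 7.33 in EYFP IP, Snx3 at 7.04, Chmp2a at 6.46, Chmp5 at 6.17, Vps28 at 6.09 and Vps4a at 5.75, and the same 6 genes in the same order led in the other 3 groups. At the low end of EYFP IP were Snx29 at 0.16, Vps13a at 0.23, Vps13b at 0.63 and Snx7 at 0.86. Vps4b stood at 2.72 on that scale in EYFP IP, below Vps4a, although it was Vps4b and not Vps4a that passed as higher in IP than in input.

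Partners of these complexes without a Vps, Snx or Chmp symbol were read from lists chosen with earlier results known. A list of 23 genes held 5 subunits of the actin-nucleating WASH complex, 10 COMMD proteins, which work with retriever, and 8 further partners of these routes. Of the 23, 7 were higher and 3 lower in EYFP, and 6 and 2 in hTyr. Of all genes 28.5% were higher and 28.1% lower in EYFP, and 27.4% and 27.0% in hTyr. None of the COMMD genes was higher, and all of the falls were theirs (Commd6, Commd8 and Commd10 in EYFP, Commd6 and Commd10 in hTyr, named after their values were seen). The risers were 2 WASH subunits and, of the further partners, 5 in EYFP and 4 in hTyr. The WASH subunits Washc4 (in the table as A230046K03Rik) and Washc5 (E430025E21Rik) gained 1.34 and 0.50 in EYFP and 1.64 and 0.67 in hTyr (largest adjusted p 0.000574). Of 14 tethering and fusion partners, 5 were higher and 3 lower in EYFP and 7 and 3 in hTyr. The SNARE gene Vamp7 gained 0.78 and 1.09, and the early endosomal tether gene Eea1 0.67 and 0.83, with a largest adjusted p of 0.000169. Tgfbrap1, the CORVET subunit that takes the place of Vps39, fell by 0.41 and 0.34 (adjusted p = 0.000888 and 0.00335), against the rise of CORVET's Vps8.

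Of 16 ESCRT partners 5 were higher and 3 lower in EYFP and 7 and 5 in hTyr. The shares of all genes were 28.5% and 28.1% in EYFP and 27.4% and 27.0% in hTyr. Stam, an ESCRT-0 subunit that captures ubiquitinated cargo, gained 0.44 and 0.74 (adjusted p = 6.03e-05 and 8.81e-06). Mvb12b, an ESCRT-I subunit and the gene with the lowest p of the list in both treatments, was lower by -0.64 and -0.71 (adjusted p = 2.53e-05 and 3.73e-06). The retriever core subunits with older symbols, Dscr3 and 9030624J02Rik, gained 0.20 and 0.16 in EYFP (adjusted p = 0.0317 and 0.0396) and stood at 0.19 and 0.14 in hTyr (adjusted p = 0.0604 and 0.215).

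The second comparison asked whether hTyr changed these genes. On the tagged ribosomes none of the 68 members passed the threshold in limma, beside 0.0556% of all genes, and the lowest adjusted p among them was 0.776. At an unadjusted p under 0.05 there were 3 members, beside 6.19% of all genes, and voom in limma on recovered reads gave 0 and 3. The median difference of the members was 0.049 on the log2 scale, with a range from -0.20 to 0.28, against a median of -0.005 over all genes. Of the members 45 were higher and 23 lower in hTyr, that is 66.2% higher against 48.2% of all genes. Of the 9 noradrenergic markers 0 passed the threshold in IP in limma, and 3 had an unadjusted p under 0.05. Their median in IP was 0.35 higher in hTyr, with a range from -0.39 to 1.0. In input Slc6a2 alone passed, lower in hTyr by -0.91 (limma adjusted p = 0.0339). The part of these shifts in the members' values was not tested.

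Snx2 had the lowest p of them. Its 5 hTyr IP libraries stood at 6.35, 6.17, 6.07, 6.38 and 6.32 and its EYFP IP libraries ran from 5.81 through 6.04 to 6.27, so the groups overlapped. The difference was 0.23 (SE 0.09, limma adjusted p = 0.776). Snx10 stood at 7.73, 7.64, 7.33, 7.55 and 7.28 in hTyr IP against 7.18 through 7.26 to 7.54 in EYFP IP, a difference of 0.22 (SE 0.10, adjusted p = 0.791). Vps13d stood at 6.01, 5.82, 5.97, 5.98 and 6.32 against 6.14 through 6.19 to 6.33, a difference of -0.19 (SE 0.09, adjusted p = 0.795). In both genes the groups overlapped. Next in order were Vps26a (0.14, SE 0.08), Snx16 (0.19, SE 0.10) and Vps9d1 (-0.20, SE 0.11), each with an adjusted p of 0.827.

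In input 0 of the 68 members passed in limma, beside 0.00794% of all genes, and 0 had an unadjusted p under 0.05, beside 3.03% of all genes. With voom the counts were 0 and 1. The median member difference was 0.003, with 35 higher and 33 lower. Vps37d was at 0.18 (SE 0.09) and Vps13a at -0.44 (SE 0.21), the widest difference of any member, with its value of 1.90 in Pre_501 against 2.73 or more in every EYFP input library. Without that animal the difference of Vps13a was -0.25. The hTyr input libraries of Snx9 stood at 4.05, 4.01, 4.03, 4.04 and 3.97. Its EYFP input libraries ran from 4.08 through 4.15 to 4.24, so the groups did not overlap. How many of all genes separate in this way was not counted. The difference of Snx9 was -0.14, with a limma adjusted p of 0.99 like those of Vps37d and Vps13a. Vps8 (-0.14), Vps36 (0.21) and Snx21 (0.09) followed, also with an adjusted p of 0.99.

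**Figure D4:**
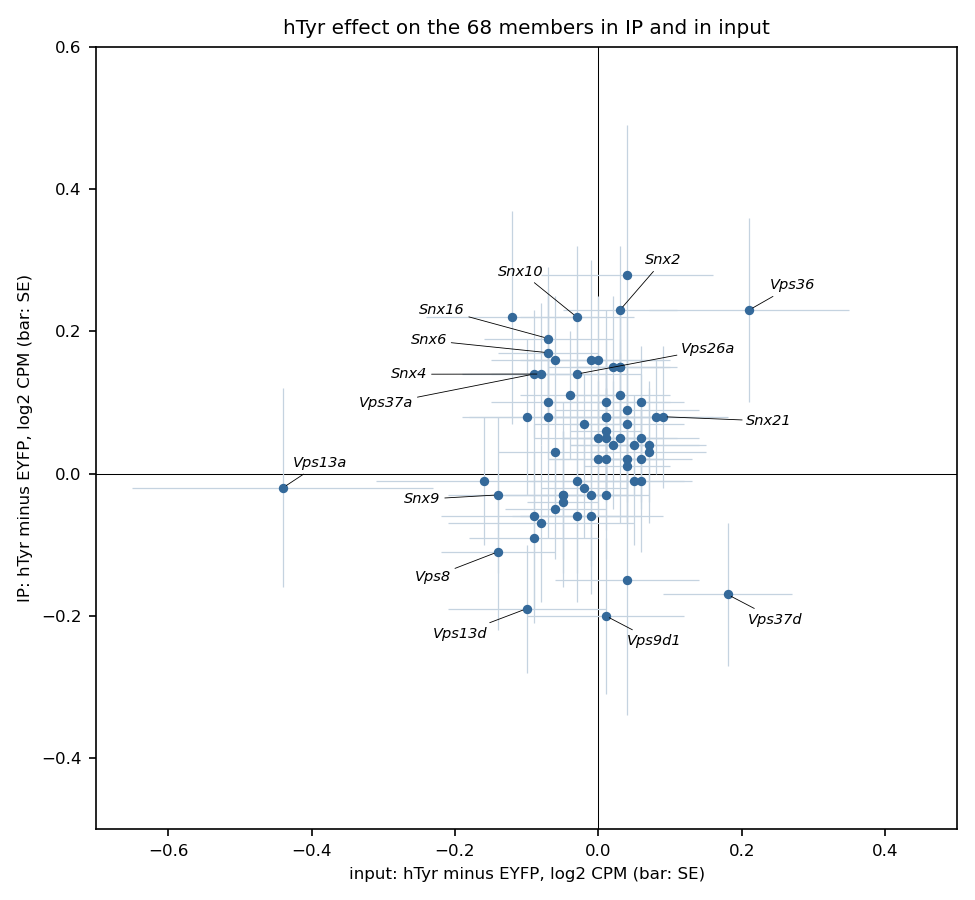
Difference between hTyr and EYFP in IP (y axis) against the same in input (x axis) for the 68 members, in log2 CPM (points, limma estimate; bars, SE; names mark the members with the lowest unadjusted p in a comparison). The values lie between -0.20 and 0.28 in IP and between -0.44 and 0.21 in input, and no member passed the threshold in either.

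The interaction asked whether the hTyr difference in IP departed from that in input, which is also the difference between the treatments in IP minus input. Of the 68 members 0 passed in limma, beside 0.00794% of all genes, and 2 had an unadjusted p under 0.05, beside 3.31% of all genes. With voom these counts were 0 and 2, and with the animal as a block 0 and 5. The 3.31% belongs to the main fit, so the 5 under the block have no share of all genes to be set against. Vps37d had the lowest p: it stood at 4.88, 4.97, 5.09, 4.72 and 4.75 in hTyr IP and at 5.44, 5.32, 5.22, 5.24 and 5.35 in hTyr input, and ran from 4.88 through 5.09 to 5.23 in EYFP IP and from 4.94 through 5.13 to 5.40 in EYFP input. IP lay below input without overlap in hTyr alone. The interaction was -0.35 (SE 0.13, unadjusted p = 0.0119 in limma, adjusted p = 0.996) and -0.21 after the length and GC adjustment. Snx6 followed with 0.24 (SE 0.11), then Snx16 with 0.26 (SE 0.13) and Snx10 with 0.25 (SE 0.13), and Snx4 and Vps37a were also among the lowest 6, each with an adjusted p of 0.996.

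Differences followed base composition across members, given here as a description over 68 genes measured in the same libraries. GC content is that of the longest transcript, and length is that of all exons merged. Spearman's rho of the log2 difference between IP and input with GC content was -0.41 in EYFP and -0.52 in hTyr (-0.34 and -0.44 over all genes). With length it was 0.37 and 0.39 (0.11 and 0.16 over all genes). For the hTyr difference in IP rho was -0.47 with GC content (-0.26 over all genes) and -0.07 with length. In input, with the opposite sign, it was 0.51 with GC content (0.41 over all genes) and -0.50 with length, and for the interaction it was -0.72 with GC content, against -0.49 over all genes. After the adjustment for both, 28 members were higher and 17 lower in EYFP, and 31 and 11 in hTyr. Of all genes with a length, 26.3% were then higher and 30.0% lower in EYFP, and 25.1% and 27.7% in hTyr. Of the 47 members called in EYFP 38 kept their call, and of the 42 in hTyr 33 did. Vps54 then passed as lower in both treatments (adjusted p = 0.000151 and 0.000867), and Snx5 and Vps13d did as well. Vps52 and Snx8 were among those added in both.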

How the data were processed

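The authors deposited 1 log2 expression table that covers 12596 genes in 22 libraries, described there as filtered, normalized and log transformed. STAR, featureCounts and mm10 are named in the submitters' processing notes, while their roles, versions, strand setting, filter and normalization are not given in the sources used here. The deposited log2 values are CPM with a pseudocount that averaged 2 reads, since back-transformation gave whole reads for 100% of values (tolerance 0.05 reads), so depth could be read per library (12654489 to 25100142 reads in the table, counting error only).

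Genes were tested with limma 3.58.1 in R 4.3.3 (lmFit, eBayes with trend) on the deposited values of the groups compared, in 5 comparisons. P-values were adjusted over all genes. The script was tested on simulated data. Exon lengths, GC content and coordinates came from the GENCODE annotation of mm10, with a value for 12367 genes (98.2%). A length merges all exons of a gene, and the GC content is that of its longest transcript. Promoters came from RefSeq. Tables and figures used Python 3.11.15. IP and input of an animal were matched by the animal number in the titles: deviations from the group means correlated at a mean r of 0.448 within animals (range 0.279 to 0.626, 11 animals) and -0.043 between animals.

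The members, role groups, marker and partner lists were chosen with earlier results of these data known. Values in full were given for up to 10 members with the largest rise and 10 with the largest fall among those past the threshold in both treatments, and for the 6 lowest p in each other comparison. Up to 3 genes per partner list and comparison could be named, by the lowest p. Alternatives were no trend, 5 CPM added before the log, the upper 75% of genes, median centring, voom on recovered reads, a length and GC adjustment of each library (loess, span 0.4), a shared spread, the animal as a replicate block, that block with the length and GC adjustment, and leaving out each animal. For the 15 pairs the alternatives were added after the data were seen.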

Additional observations from a re-analysis of the deposited data

Results flagged for a closer look

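Within single groups, 9 of 272 sets of a member's libraries held a value far from the others, where a gap of that size is expected by chance in about 1 set in 20, or 13.6 sets. Values are log2 CPM, with the nearest other library of the group after each. In the EYFP input library Pre_507, 3 members stood low: Snx24 at 3.95 (next 4.40), Vps28 at 6.96 (7.10) and Vps39 at 6.21 (6.32). Among EYFP IP libraries, IP_504 was high for Snx10 at 7.54 (7.31) and Vps29 at 7.48 (7.28), and IP_507 was low for Snx12 at 5.49 (5.82). Vps18 was high in the EYFP input library Pre_511 at 5.88 (5.44). In hTyr IP, Vps13b was low in IP_501 at 4.81 (5.0), and Vps51 was high in IP_502 at 6.27 (6.05).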

How the results depend on the processing

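Members past the threshold in IP against input numbered 38 to 47 in EYFP (9 to 15 lower, 29 to 32 higher) when each animal was left out in turn, against 47 with all (14 lower, 33 higher). In hTyr they numbered 36 to 43 (7 to 12 lower, 27 to 32 higher), against 42 with all (11 lower, 31 higher). The lowest counts of lower members came without the animal of IP_506 in EYFP and without that of IP_502 in hTyr, where fewer samples were tested. Under the other settings the totals were 44 to 49 in EYFP and 42 to 49 in hTyr, and hTyr against EYFP and the interaction gave 0 under every setting run. With the replicate block, which uses the animal pairing, 49 passed in EYFP and 47 in hTyr: Chmp6 and Vps13d were added in both, and Snx7, Snx8 and Vps72 in hTyr, and it changed no other call. The interaction stayed at 0 with it. Among the pair differences, 3 changed sign: after the length and GC adjustment Chmp1b minus Chmp1a was -0.28 and Vps41 minus Vps39 -0.13, and Chmp2b minus Chmp2a, -0.03 in all animals, ran from -0.08 to 0.00 as single animals were left out, with 0.00 without that of IP_509, and the cause was not tested. The upper 75% of genes did not include Vps13a, Snx7 or Snx29. Depth limits Snx29 most, with 76 reads in its smallest library.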

Other observations

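Of 12 receptors and transporters known as cargo of endosomal sorting, 8 were higher and 1 lower in EYFP IP than in EYFP input. In hTyr these counts were 7 and 1, and the median log2 difference was 0.47 and 0.44. The shares of all genes were 28.5% higher and 28.1% lower in EYFP and 27.4% and 27.0% in hTyr. The lipoprotein receptor gene Vldlr gained 0.66 and 0.88 (limma adjusted p = 0.000175 and 2.53e-06), and the sortilin-related receptor genes Sorcs1 and Sorcs3 gained 0.63 and 0.62 in EYFP and 0.76 and 0.62 in hTyr. The transferrin receptor gene Tfrc, whose product recycles through early endosomes, gained 0.62 and 0.96 (adjusted p = 0.00368 and 5.26e-06). Lrp1, a receptor recycled with the help of Snx17, went the other way, from 8.55 ± 0.15 to 8.13 ± 0.10 log2 CPM in EYFP (SD, n = 6) and from 8.54 ± 0.22 to 7.91 ± 0.17 in hTyr (SD, n = 5). The fall was -0.42 and -0.63, with a limma adjusted p of 0.000205 and 0.000116, while Snx17 itself was higher by 0.32 in both. Between hTyr and EYFP none of the 12 passed the threshold in IP or in input in limma, and 2 in IP and 0 in input had an unadjusted p under 0.05.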
